A study of Mus musculus with 12 samples.

Results

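The carbonic anhydrases of a mouse bone cell model were examined as 10 genes, Car2, Car3, Car4, Car5b, Car6, Car8, Car9, Car11, Car12 and Car13, matched by gene name among the 56350 genes of the count table. All 10 were found. Of these, 8 exceeded 10 counts in 3 or more of the 12 libraries. The same filter left 16484 genes for testing, and Car4 and Car12 did not pass it. RNAseq was done on MPC2 cells, a conditionally immortalized mouse mesenchymal progenitor line that is 1 clone. Undifferentiated cells (MSCs) had been kept at 33 °C, and osteocytes had been differentiated for 3 weeks at 37 °C in osteogenic medium with ascorbic acid and beta-glycerophosphate. Each cell type received vehicle (DMSO) or 50 µM FG-4592 (Roxadustat, an inhibitor of the HIF prolyl hydroxylases) for 48 h, with 3 libraries per condition. Differentiation, temperature and medium changed together, so their parts cannot be told apart. Nothing in the labels says that the 3 libraries of a condition came from separate cultures, and the p-values therefore measure the spread between these libraries, which may be technical.

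Carbonic anhydrases convert carbon dioxide and water to bicarbonate and a proton, and back. The family has cytosolic enzymes, enzymes of the mitochondria, enzymes anchored in the plasma membrane with the active site outside the cell, a secreted enzyme, and related proteins that have lost the activity. In bone, the cytosolic enzyme encoded by Car2 is best known from osteoclasts, where it supplies protons for resorption, and the membrane enzyme encoded by Car9 is a well-known target of the hypoxia-inducible factors (HIFs), which bind DNA at a short core sequence, ACGTG or GCGTG. These enzymes also work beside bicarbonate transporters, lactate and proton exporters and the vacuolar proton pump.

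The stretches before 3 of the members with a sequence at hand are shown as contrasting cases. Car9 rose with FG-4592 in osteocytes, Car12 was close to 0 throughout, and Car5b was abundant and did not pass the test. Car4 was lower still than Car12, and no sequence was at hand for Car2, Car3, Car8 and Car13. The sequences are RefSeq's on GRCm38.p6, the assembly of the mm10 build used for the counts, written 5′ to 3′ on the strand of the gene in lower case, with a match to ACGTG or GCGTG on either strand in capitals. For Car9, 190 bases before the annotated gene at chr4:43506776-43506965 (+) come first, followed by 30 bases around its match at chr4:43506996-43507025. For Car12 and Car5b, 250 bases are given at chr9:66713436-66713685 (+) and at chrX:164028011-164028260 (-).
Car9 before the gene: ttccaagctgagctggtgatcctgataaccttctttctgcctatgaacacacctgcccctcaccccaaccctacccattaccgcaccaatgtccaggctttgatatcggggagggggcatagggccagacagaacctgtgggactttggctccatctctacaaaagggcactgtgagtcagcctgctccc
Car9 site: ctatttccgatgCACGTacagcccgtccac
Car12: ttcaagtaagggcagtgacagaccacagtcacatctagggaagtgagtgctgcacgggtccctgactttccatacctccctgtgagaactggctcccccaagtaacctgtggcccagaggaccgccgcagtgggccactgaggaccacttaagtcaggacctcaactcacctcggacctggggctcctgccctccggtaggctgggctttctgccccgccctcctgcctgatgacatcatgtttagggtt
Car5b: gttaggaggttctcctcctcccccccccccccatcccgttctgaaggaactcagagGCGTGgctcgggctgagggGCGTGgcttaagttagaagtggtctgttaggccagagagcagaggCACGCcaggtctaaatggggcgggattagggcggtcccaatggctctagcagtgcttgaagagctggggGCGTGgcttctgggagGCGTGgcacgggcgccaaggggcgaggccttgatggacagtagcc

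RefSeq windows of 250 bases before the start were at hand for 6 members, Car4, Car5b, Car6, Car9, Car11 and Car12. They held 7 windows, 2 of them for Car11. A match was found in 4 of these 7 windows, against 38.6% of 32851 windows of the same length from 27025 genes. Car9 had 1 match, on the opposite strand, beginning 18 bases before the RefSeq start, and the last 60 bases of its window lie inside the gene as GENCODE annotates it. Car5b had 5 matches, from 194 to 45 bases before the start, where 16.7% of all windows had 2 or more. Car6 had 2 matches that overlap as a palindrome, Car11 had 1 match in 1 of its windows, and Car4 and Car12 had none. A match is a description of these letters and not a binding site.

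The family was spread over the genome (mm10) except for 4 genes on chromosome 3. Car13 (14641727 to 14663002), Car1 (14766216 to 14808368), Car3 (14863512 to 14872523) and Car2 (14886273 to 14900770) lay within 259 kb, and the annotation placed no other protein-coding gene between the outer ends of this stretch. Car9 (chromosome 4, 43506966 to 43513729), Car6 (chromosome 4, 150187015 to 150201332) and Car8 (chromosome 4, 8143362 to 8239041) were far apart on chromosome 4, and Car5b was on the X chromosome (163976822 to 164027997). Car11 was on chromosome 7 (45699843 to 45704682), Car12 on chromosome 9 (66713686 to 66766845) and Car4 on chromosome 11 (84957786 to 84966044). All are annotated as protein coding, and the values are counts over their exons. Only Car9 among the 10 members shared exonic bases with another gene: 214 bases, 9.29% of its exonic length, with the lncRNA Gm12454 on the opposite strand. The counting used no strand and assigned a read pair to every gene it overlapped, so reads of these 214 bases cannot be told apart.

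Library totals ranged from 52829185 to 68108470 counts, and a count of 0 allows up to 3 counts, or 0.0447 to 0.0545 CPM (counts scaled to the library total and the TMM factor of the library), for counting error only. Osteocyte vehicle replicate 1 stood apart from its replicates: the median over well-counted genes of a chi-square between the counts of 2 libraries was 6.56 and 8.20 against replicates 2 and 3, and 4.43 between those 2, with 2.26 to 4.61 in the other conditions. Car9 and Car8 in osteocytes are given without it as well. Of 8 mesenchymal markers, 7 passed the filter. Among those 7, 4 fell with FG-4592 in MSCs while 2 rose (median log2 fold change -0.27). For osteocytes, 2 fell while 3 rose (0.02). All 8 osteoblast markers passed. In osteocytes 6 of these 8 fell with FG-4592 while 0 rose (median -0.77). Their MSC result was 4 that fell, 1 that rose (-0.51). Of all genes, 20.4% fell while 17.6% rose in MSCs, against 22% with 21.9% for osteocytes. The part of these lineages in the levels of Car2 and Car13, given below, was not tested. Of 6 osteocyte markers, Dmp1, Phex and Fgf23 passed the filter. Sost was at 0 and Mepe at 3 counts or fewer in every library. Pdpn is listed on 2 rows, 1 of them an alternate sequence, and its counts of 0 to 1 are uncertain. The summed level of the 6 was 1.69 to 3.13 CPM in MSC vehicle, 0.375 to 0.772 CPM in MSC FG-4592, 61.4 to 76.7 CPM in osteocyte vehicle and 6.06 to 7.00 CPM in osteocyte FG-4592. With FG-4592 in osteocytes 1 of the 3 tested rose (Fgf23, which was over 10 counts only in that condition and was tested because of it) and 2 fell (Dmp1 and Phex), beside 21.9% and 22% of all genes. In MSCs 2 fell, beside 20.4%. A gene was called where its FDR, the Benjamini-Hochberg-adjusted p of edgeR's quasi-likelihood test over all genes tested, was under 0.05 and its absolute log2 fold change above 1. Of 8 HIF reference targets (Ankrd37, Bnip3, Egln3, Ldha, Pdk1, Pgk1, Slc2a1 and Vegfa), 7 were called higher with FG-4592 in MSCs (Egln3, at 0 to 1 count there, was the exception) and 8 in osteocytes, against 4.12% and 6.25% of all genes tested, with median log2 fold changes of 3.49 and 3.71 against -0.05 and 0.00 over all genes tested. Egln3, with 0 to 33 counts in osteocyte vehicle and 879 to 1051 in osteocyte FG-4592, was tested because of the latter. This list was chosen with earlier results of these data known.

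Carbonic anhydrase mRNA was dominated by Car13, a cytosolic enzyme, and by Car5b, a mitochondrial enzyme thought to supply bicarbonate to carboxylases. Levels were compared between genes as CPM per kilobase of exon. Before division by length, Car5b was above Car13 in osteocytes (131 against 91.1 CPM in vehicle, 127 against 61.8 in FG-4592), so their order there rests on the annotated lengths. In MSC vehicle, Car13 held 58.9 CPM per kb ± 3.18 (SD, n = 3), or 75.3% of the sum over the 10 members, ahead of Car5b at 10.1 ± 0.705. Next came Car2 (3.02 to 3.39 CPM per kb), Car3 (2.61 to 2.98), Car8 (2.15 to 2.23) and Car11 (0.808 to 1.29), and Car2 and Car3 were separated by less than their own range. In osteocyte vehicle the order was Car13 (38.4 to 40.8), Car5b (17.9 to 22.2), Car3 (8.56 to 10.4), Car11 (1.70 to 2.03), Car2 (1.08 to 1.17) and Car8 (0.275 to 0.520). Car2, the third in this order in MSC vehicle, was the fifth in osteocyte vehicle. With FG-4592 neighbouring ranges overlapped for Car8 and Car3 in MSCs (3.84 to 4.36 and 2.90 to 4.21) and for Car2 and Car8 in osteocytes (0.50 to 0.75 and 0.238 to 0.587).

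The summed level of the 10 members was lower with FG-4592 in both cell types. It was 78.2 CPM per kb ± 2.55 in MSC vehicle, 65.2 ± 1.86 in MSC FG-4592, 73.0 ± 1.99 in osteocyte vehicle and 59.5 ± 3.02 in osteocyte FG-4592 (SD, n = 3 each). Vehicle and FG-4592 libraries did not overlap in either cell type, and this sum was not tested. Its fall was mainly that of Car13, from 58.9 to 44.2 CPM per kb in MSCs and from 39.6 to 26.9 in osteocytes, and not a fall shared by all members. The share of Car13 was 75.3%, 67.9%, 54.3% and 45.2% in the same order of conditions, and that of Car5b 12.9%, 16.4%, 28.2% and 33.6%. Car3 made up 3.51%, 5.41%, 12.6% and 13.2%. Car9 reached 2.46% ± 0.129 in osteocyte FG-4592 from 0.0492% in osteocyte vehicle, all of it from replicate 1 (0.148%), with 0 in replicates 2 and 3.

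**Figure D1:**
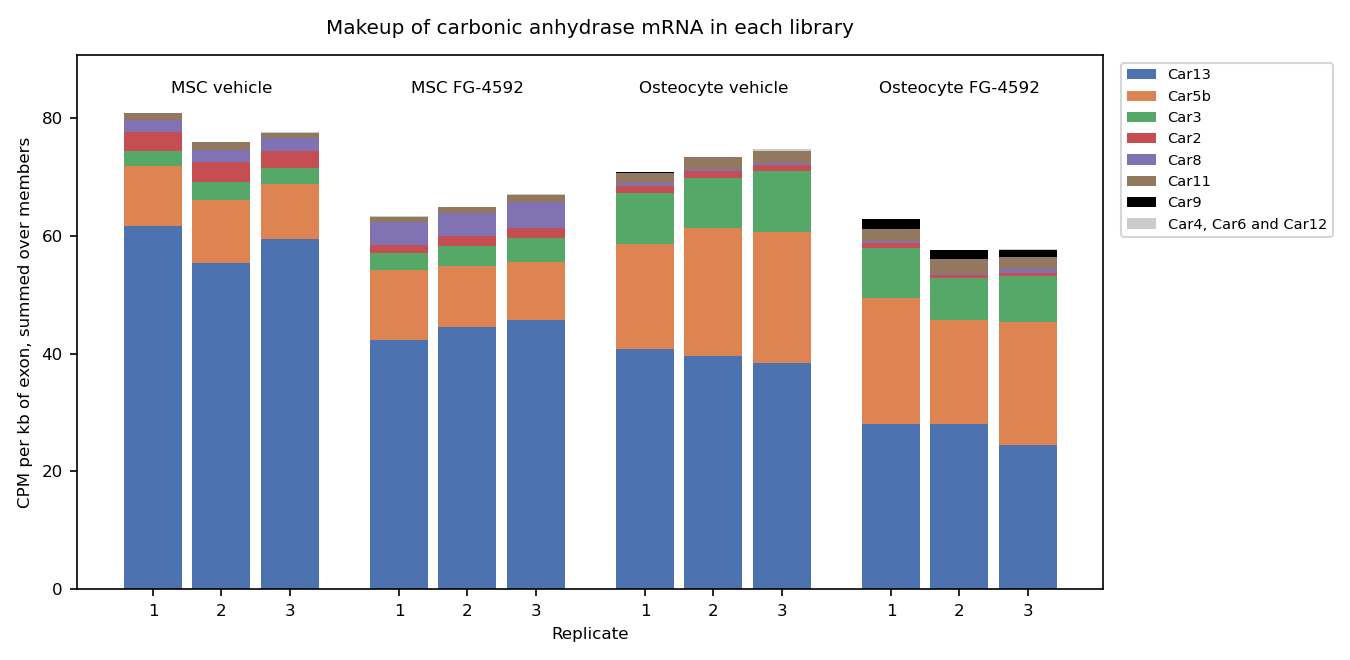
Stacked bars give the CPM per kb of exon of each carbonic anhydrase member in each of the 12 libraries, grouped by condition with the replicate number on the x axis. Car13 is the tallest segment in every library, Car5b and Car3 are larger in osteocytes, and Car9 is visible as a black segment in the 3 osteocyte FG-4592 libraries, where it averaged 2.46% of the sum.

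The largest fold change with FG-4592 among the tested members was that of Car9 in osteocytes. Car9 encodes a membrane enzyme with its active site outside the cell. Its counts were 2, 1 and 3 in MSC vehicle, 3, 7 and 0 in MSC FG-4592, 16, 0 and 0 in osteocyte vehicle, and 239, 205 and 186 in osteocyte FG-4592. All 3 FG-4592-treated osteocyte libraries stood above the other 9 libraries, among which the highest was osteocyte vehicle replicate 1. Car9 rose with FG-4592 in osteocytes by 5.27 on the log2 scale (SE 0.810, 95% interval 3.55 to 7.00, FDR 3.09e-05). It passed the filter on low counts only through the 3 FG-4592-treated osteocyte libraries and osteocyte vehicle replicate 1, so it was tested because of the condition in which it was high. The size of this fold rests on osteocyte vehicle replicate 1. Without that library the vehicle osteocytes were at 0, and Car9 was at least 62.4-fold higher in FG-4592, against a floor of 3 counts per library. This bound covers counting error only and is no minimum for the condition. The library left out had 0.241 CPM, beside a mean of 3.37 CPM in osteocyte FG-4592.

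In MSCs the Car9 libraries overlapped, and the log2 fold change was 0.61 (SE 1.32, FDR 0.746). The difference between the responses, osteocytes minus MSCs, was 4.67 (SE 1.55, 95% interval 1.37 to 7.96, unadjusted p = 0.0147 from edgeR, FDR 0.0574) and missed the threshold. It passed with the likelihood ratio test (FDR 0.00294), with no filter on low counts (FDR 0.000206), without MSC FG-4592 replicate 2 (FDR 0.0427) and without osteocyte vehicle replicate 1 (FDR 0.000781), and its highest FDR over the alternatives was 0.203. Within FG-4592, Car9 was higher in osteocytes than in MSCs by 5.96 (SE 0.923, FDR 1.08e-05). In vehicle the same comparison gave 1.29 (SE 1.24, FDR 0.376), with overlapping libraries. Gm12454, the lncRNA on the opposite strand, had 8 to 28 counts in osteocyte vehicle and 26 to 28 in osteocyte FG-4592, and the part of its reads in the Car9 counts was not tested.

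The other membrane enzymes were near the floor. Car12, which encodes a transmembrane enzyme of the same arrangement as that of Car9, had 10, 15 and 2 counts in MSC vehicle, 9, 8 and 2 in MSC FG-4592, 4, 8 and 0 in osteocyte vehicle, and 3, 0 and 0 in osteocyte FG-4592. A single library exceeded 10 counts, so Car12 was not tested. Car4, which encodes an enzyme held by a lipid anchor, had 1 count in 1 library and 0 in the other 11. Car6, which encodes the secreted enzyme of saliva, was just inside the filter with 3 libraries over 10 counts, and Car9 with 4.

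Car2 encodes a highly active cytosolic enzyme. It fell with FG-4592 in both cell types and was lower in osteocytes than in MSCs. Its counts were 415, 491 and 466 in MSC vehicle, 196, 262 and 249 in MSC FG-4592, 177, 158 and 161 in osteocyte vehicle, and 118, 74 and 91 in osteocyte FG-4592. The 4 conditions did not overlap in CPM: the lowest MSC vehicle library had 7.32 CPM and the highest osteocyte FG-4592 library 1.82 CPM. Means were 7.69 CPM ± 0.457, 3.69 ± 0.350, 2.71 ± 0.117 and 1.51 ± 0.303 (SD, n = 3), in the same order.

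With FG-4592 Car2 changed by -1.06 on the log2 scale in MSCs (SE 0.153, FDR 4.27e-05) and by -0.84 in osteocytes (SE 0.167, FDR 0.0006). In MSCs it passed the cutoff of 1 for a call by little: the change was -0.98 without MSC vehicle replicate 2 and -0.98 without MSC FG-4592 replicate 1, both still under an FDR of 0.05. The responses differed by 0.22 (SE 0.226, 95% interval -0.26 to 0.70, FDR 0.546). Osteocytes were lower than MSCs by -1.51 in vehicle (SE 0.156, FDR 7.05e-07) and by -1.29 in FG-4592 (SE 0.164, FDR 5.22e-06).

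Osteoclasts and red cells are the cells in which Car2 is best known, and their markers were listed beside it. Of 10 osteoclast markers 5 passed the filter. Calcr was at 0, and Dcstamp and Ocstamp were at 3 counts or fewer in every library. The summed level of the list was 105 to 112 CPM in MSC vehicle, 183 to 194 in MSC FG-4592, 172 to 177 in osteocyte vehicle and 323 to 359 in osteocyte FG-4592. It was lowest in MSC vehicle, where Car2 was highest, and highest in osteocyte FG-4592, where Car2 was lowest, and its part in the Car2 values was not tested. Most of the sum was Itgb3, an integrin subunit not limited to osteoclasts, with 6192 to 7636 counts in osteocyte vehicle and 17380 to 20915 in osteocyte FG-4592. Of the 5 tested, 1 rose with FG-4592 in osteocytes (Itgb3) and 2 fell (Ctsk and Mmp9), beside 21.9% and 22% of all genes, with a median log2 fold change of -0.49. In MSCs 1 rose (Itgb3) and 1 fell (Mmp9), beside 17.6% and 20.4%. Between the cell types 4 of the 5 were higher and 1 lower in osteocytes in vehicle (beside 26% and 24.9% of all genes, median 1.09) and likewise in FG-4592 (beside 30.5% and 25.3%, median 0.94). Of 9 erythroid markers, Epor alone passed, Hba-a2, Hbb-bs and Hbb-bt were at 0, and Hba-a1 and Alas2 were at 3 counts or fewer. The sum was 1.87 to 2.76 CPM in MSC vehicle, 0.923 to 1.92 in MSC FG-4592, 3.16 to 3.76 in osteocyte vehicle and 1.95 to 2.11 in osteocyte FG-4592. Epor fell with FG-4592 in osteocytes (log2 fold change -0.79) and did not pass in MSCs (-0.58). It did not pass between the cell types either (0.58 in vehicle, 0.37 in FG-4592). In bulk samples, fewer cells of a type and less RNA per cell cannot be told apart, here and for each member below.

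Car13, the most abundant member per kb of exon, followed the same order as Car2 with smaller steps. Its counts were 7811, 7633 and 8714 in MSC vehicle, 5811, 6875 and 6733 in MSC FG-4592, 6228, 5066 and 5431 in osteocyte vehicle, and 4196, 3949 and 3407 in osteocyte FG-4592. The libraries of the conditions did not overlap in CPM, with means of 135.4 ± 7.31, 101.7 ± 3.86, 91.1 ± 2.73 and 61.8 ± 4.82 (SD, n = 3). Car13 fell with FG-4592 by 0.41 on the log2 scale in MSCs (SE 0.0597, FDR 3.92e-05) and by 0.56 in osteocytes (SE 0.0603, FDR 1.29e-06). It was lower in osteocytes by -0.57 in vehicle (SE 0.0598, FDR 7.15e-07) and by -0.72 in FG-4592 (SE 0.0602, FDR 4.11e-08). None of these changes reached the cutoff of 1 for a call. The difference of the responses was -0.15 (SE 0.0849, 95% interval -0.33 to 0.03, FDR 0.240).

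Car3, which lies between Car13 and Car2 on chromosome 3, encodes an enzyme of low activity that is abundant in adipocytes and skeletal muscle. It was higher in osteocytes, with 412, 511 and 478 counts in MSC vehicle, 495, 674 and 772 in MSC FG-4592, 1646, 1365 and 1838 in osteocyte vehicle, and 1602, 1244 and 1354 in osteocyte FG-4592. Every osteocyte library (20.3 to 29.9 CPM) stood above every MSC library (7.48 to 12.1 CPM). Car3 rose in osteocytes by 1.75 in vehicle (SE 0.125, FDR 9.12e-09) and by 1.15 in FG-4592 (SE 0.124, FDR 8.32e-07).

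The response of Car3 to FG-4592 differed between the cell types by -0.60 (SE 0.176, 95% interval -0.98 to -0.23, FDR 0.0196). It rose in MSCs by 0.37 (SE 0.128, FDR 0.0316), with overlapping libraries, while the value in osteocytes was -0.23 (SE 0.121, FDR 0.133). The rise in MSCs was no longer past the threshold without MSC vehicle replicate 1 (FDR 0.0745) or 3 (FDR 0.0669), without MSC FG-4592 replicate 2 (FDR 0.0635) or 3 (FDR 0.189), or with library size as the only scaling (FDR 0.0889). The difference had an FDR of 0.0558 without MSC FG-4592 replicate 3 and 0.0507 without osteocyte vehicle replicate 3.

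Adipocyte markers moved with Car3 between the cell types. Of 8 listed, 7 passed the filter, Lep was at 3 counts or fewer, and all 7 were higher in osteocytes in vehicle and in FG-4592, beside 26% and 30.5% of all genes. Adipoq went from 410 to 529 counts in MSC vehicle to 79202 to 106392 in osteocyte vehicle, and Cfd from 0 to 11 to 18334 to 24811. Cfd and Cidec, with at most 11 and 5 counts in an MSC library, were tested because they were high in osteocytes. The summed level of the list was 675 to 681 CPM in MSC vehicle, 867 to 894 in MSC FG-4592, 3675 to 4624 in osteocyte vehicle and 4007 to 4633 in osteocyte FG-4592. Of 8 skeletal muscle markers, 1 passed. Myh1, Myh2, Myh4 and Myog were at 0 in every library, and the sum lay between 2.37 and 8.75 CPM. With FG-4592 1 of the 7 adipocyte markers rose and 2 fell in MSCs, beside 17.6% and 20.4% of all genes, and 2 rose in osteocytes, beside 21.9%. In MSCs Lpl rose by 0.45 (FDR 3.52e-06) while Adipoq fell by 1.44 (FDR 2.50e-07) and Pparg fell by 0.21 (FDR 0.00490), and in osteocytes Fabp4 rose by 1.19 (FDR 6.83e-07) and Cidec rose by 0.62 (FDR 0.000915). The part of adipocyte-like cells in the Car3 level was not tested.

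Car5b, on the X chromosome, was higher in osteocytes and did not pass the test with FG-4592. Its counts were 3567, 4072 and 3765 in MSC vehicle, 4490, 4410 and 3992 in MSC FG-4592, 7569, 7673 and 8670 in osteocyte vehicle, and 8809, 6874 and 8050 in osteocyte FG-4592. The MSC libraries (59.2 to 75.4 CPM) and the osteocyte libraries (112 to 141 CPM) did not overlap. Car5b rose by 1.03 in vehicle (SE 0.0921, FDR 1.20e-07) and by 0.91 in FG-4592 (SE 0.0919, FDR 4.05e-07). The call in vehicle sat at the cutoff of 1, with 1.00 under library size alone, just below it, and 0.98 without osteocyte vehicle replicate 3. With FG-4592 the values were 0.08 in MSCs (95% interval -0.11 to 0.28, FDR 0.527) and -0.04 in osteocytes (95% interval -0.24 to 0.15, FDR 0.739).

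Car8 and Car11 encode carbonic anhydrase-related proteins without the enzyme activity, and the Car8 protein is known to bind the inositol trisphosphate receptor. Car8 had 459, 496 and 547 counts in MSC vehicle, 881, 1017 and 1075 in MSC FG-4592, 133, 59 and 77 in osteocyte vehicle, and 83, 56 and 137 in osteocyte FG-4592. All 3 treated MSC libraries were above the vehicle ones, and all osteocyte libraries were below all MSC libraries. Car8 rose with FG-4592 in MSCs by 0.89 (SE 0.215, FDR 0.00367). In osteocytes the value was 0.03 (SE 0.270, 95% interval -0.54 to 0.61, FDR 0.940), with overlapping libraries. It was 0.34 without osteocyte vehicle replicate 1 (FDR 0.356), and its sign changed when certain other single libraries were left out. The difference was -0.86 (SE 0.345, FDR 0.0845), with -1.08 without osteocyte vehicle replicate 2 (FDR 0.0372) and -1.29 without osteocyte FG-4592 replicate 3 (FDR 0.00459). It passed the FDR threshold with DESeq2 (FDR 0.0340) and with no filter (FDR 0.00302) too.

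Between the cell types Car8 showed the largest fall of the tested members: -2.53 in vehicle (SE 0.246, FDR 3.23e-07) and -3.39 in FG-4592 (SE 0.242, FDR 7.54e-09). Car11 went the other way. It had 123, 149 and 99 counts in MSC vehicle, 97, 126 and 163 in MSC FG-4592, 218, 218 and 239 in osteocyte vehicle, and 265, 300 and 232 in osteocyte FG-4592, and no osteocyte library overlapped an MSC library (3.28 to 4.91 against 1.56 to 2.55 CPM). The rise of Car11 was 0.82 in vehicle (SE 0.211, FDR 0.00404) and 1.08 in FG-4592 (SE 0.210, FDR 0.000371). The call depended on single libraries: 1.00, just past the cutoff, in vehicle without MSC vehicle replicate 2, and 0.95 and 0.98 in FG-4592 without MSC FG-4592 replicate 1 and osteocyte FG-4592 replicate 2. With FG-4592 Car11 gave -0.05 in MSCs (FDR 0.886) and 0.21 in osteocytes (FDR 0.449).

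Car6 was at the edge of detection. It had 0, 0 and 4 counts in MSC vehicle, 12, 3 and 4 in MSC FG-4592, 8, 2 and 38 in osteocyte vehicle, and 12, 6 and 9 in osteocyte FG-4592. The libraries overlapped in each comparison. It was called higher in osteocyte vehicle than in MSC vehicle (log2 fold change 3.44, SE 1.34, FDR 0.0231), with 38 of the 48 counts of that condition in replicate 3, and lost the call without MSC vehicle replicate 1 (FDR 0.0742) or 2 (FDR 0.0761). Exactly 3 libraries exceeded 10 counts, osteocyte vehicle replicate 3, MSC FG-4592 replicate 1 and osteocyte FG-4592 replicate 1. Leaving out any of these, or fitting only the libraries compared, took Car6 below the filter, and it was then not tested. With all libraries and no filter it was called (FDR 0.00766). In the other comparisons its values did not pass.

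**Figure D2:**
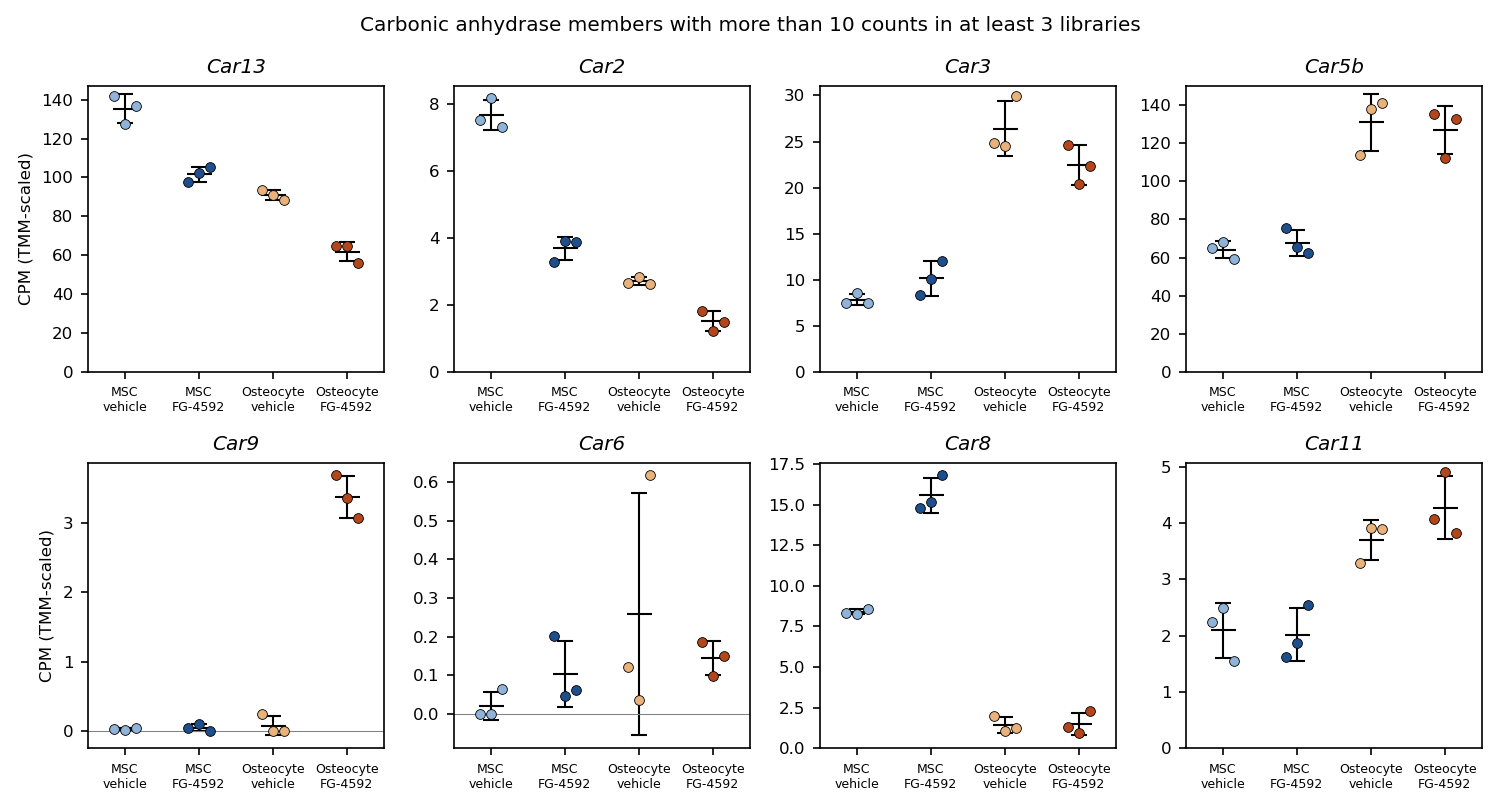
Points give the TMM-scaled CPM of each of the 12 libraries for the 8 members that passed the filter, by condition, with the mean and SD (n = 3) as black lines and a separate linear y axis for each gene. Car13 and Car2 step down across the 4 conditions, Car3 and Car5b are higher in osteocytes, Car8 is highest in MSC FG-4592, and Car9 stands at 3.07 to 3.68 CPM in osteocyte FG-4592 against at most 0.241 CPM elsewhere.

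In counts, members passed the test with FG-4592 in both directions, in shares near those of all genes tested. In MSCs 2 of the 8 tested members rose (Car3 and Car8) and 2 fell (Car2 and Car13) at an FDR under 0.05, where 17.6% of all genes tested rose and 20.4% fell. With the fold cutoff as well, 0 were called up and 1 down (Car2), against 4.12% and 5.17% of all genes. In osteocytes 1 rose (Car9) and 2 fell (Car2 and Car13), against 21.9% and 22% of all genes, and 1 was called up (Car9) and 0 down, against 6.25% and 4.26%. Car9 was tested because of the condition in which it was high. For the difference of the responses 0 passed upwards and 1 downwards (Car3), against 13.3% and 11% of all genes. None was called in either direction, against 3.94% and 1.07%, although 3 members had an unadjusted p under 0.05 in edgeR's quasi-likelihood test (Car3 0.00356, Car9 0.0147 and Car8 0.0247). The likelihood ratio test called 1 (Car9) and DESeq2 called 0. The median log2 fold change of the 8 tested members was 0.23 in MSCs and -0.14 in osteocytes, against -0.05 and 0.00 over all genes.

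Between the cell types more of the members differed. In vehicle 4 of the 8 were higher in osteocytes (Car3, Car5b, Car6 and Car11) and 3 lower (Car2, Car8 and Car13) at an FDR under 0.05, against 26% and 24.9% of all genes, and 3 were called up and 2 down, against 9.83% and 6.08%. In FG-4592 4 were higher (Car3, Car5b, Car9 and Car11) and 3 lower (Car2, Car8 and Car13), against 30.5% and 25.3%, and 3 were called up and 2 down, against 12.6% and 5.64%. Car9, among those higher and called up in FG-4592, was tested because of the osteocyte libraries in which it was high. The call of Car6 in vehicle rests mostly on osteocyte vehicle replicate 3, with 38 of the 48 counts. The comparisons share libraries and are not independent. Within the chromosome 3 stretch, neighbours did not move alike: Car3 was higher in osteocytes in both treatments, and Car2 and Car13 on either side of it were lower in both.

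**Figure D3:**
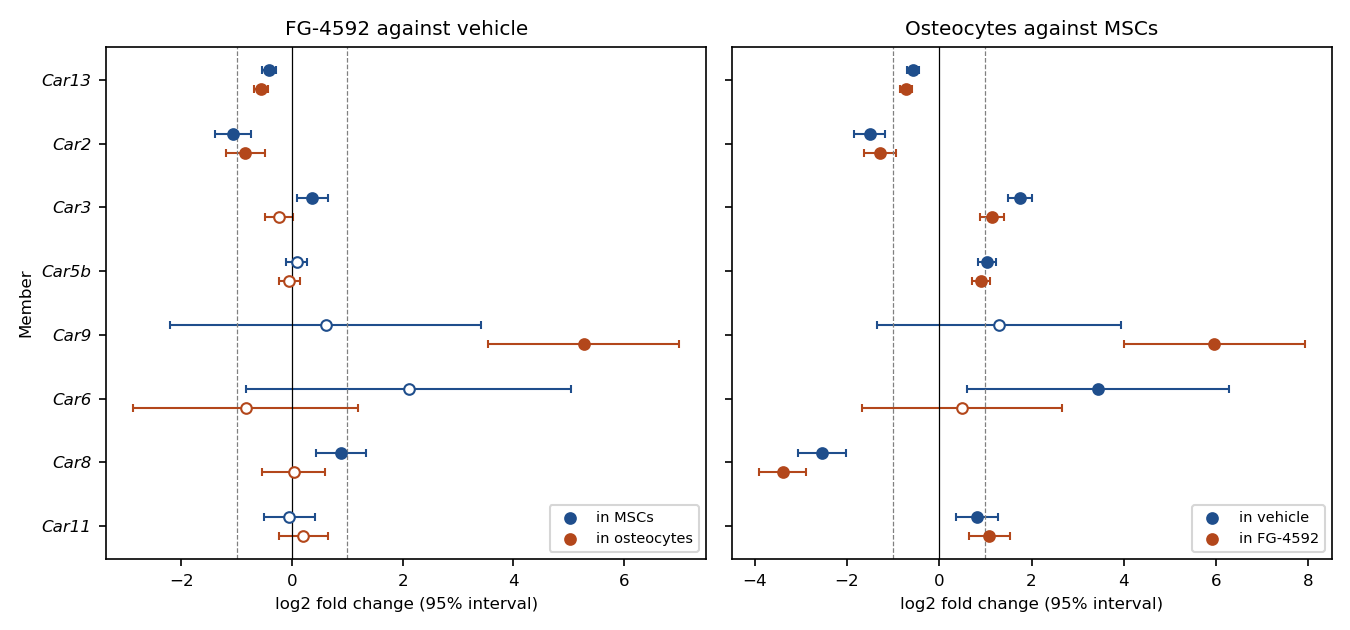
Log2 fold changes with 95% intervals are shown for the 8 tested members, on the left for FG-4592 against vehicle in MSCs (blue) and osteocytes (orange), on the right for osteocytes against MSCs in vehicle (blue) and FG-4592 (orange). Filled symbols have an FDR under 0.05, open symbols do not, and dashed lines mark the cutoff of 1. Car9 in osteocytes, at 5.27, is the only response to FG-4592 past 1 upwards among filled symbols, and the intervals of Car6 and Car9 are the widest.

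Of 6 further carbonic anhydrase genes, Car1, Car7 and Car15 passed the filter, while Car5a was at 0 in every library and Car10 and Car14 had no library over 10 counts. None of the 3 passed the test with FG-4592 in either cell type (FDR 0.374 or more for Car1, 0.114 or more for Car7, 0.413 or more for Car15), and their lowest unadjusted p in edgeR was 0.0581, for Car7 in osteocytes. Car1, a cytosolic enzyme best known from red cells and the remaining gene of the chromosome 3 stretch, had 17, 17 and 34 counts in MSC vehicle and 20, 13 and 11 in MSC FG-4592, and 1 count in 1 of the 6 osteocyte libraries. It was lower in osteocytes in vehicle (FDR 0.000256) and in FG-4592 (FDR 0.000274), but it passed the filter only through the 6 MSC libraries, and so could be tested only because it was high there. Car15 shared 1253 of its exonic bases with Gm20518 on the same strand and is uncertain. It passed in MSCs without MSC vehicle replicate 1, the library that held its 12 vehicle counts (FDR 0.00826).

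Among genes that work beside the carbonic anhydrases, some rose and some fell with FG-4592. The shares of all genes tested that did so were 17.6% up and 20.4% down in MSCs, and 21.9% up and 22% down in osteocytes. Of 14 listed bicarbonate transporters 6 were tested. In MSCs 1 rose and 0 fell, and in osteocytes 2 rose and 2 fell. Slc4a4, a sodium bicarbonate cotransporter, rose by 1.02 in MSCs (SE 0.0771, FDR 2.98e-08) and by 1.05 in osteocytes (SE 0.0761, FDR 1.32e-08). Both values sat at the cutoff for a call and were 0.95 in MSCs without MSC FG-4592 replicate 1 and 0.96 in osteocytes without osteocyte vehicle replicate 3. Slc4a7, an electroneutral member of the same group, fell in osteocytes by 1.09 (SE 0.0748, FDR 6.92e-09) from 8214 to 11647 counts in vehicle to 3931 to 4946, while MSCs gave -0.18 (FDR 0.0745). Slc26a7, an anion exchanger, fell in osteocytes by 2.07 (SE 0.387, FDR 0.000443), from 364 to 440 counts to 59 to 153, and MSCs had at most 6 counts.

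Of 13 proton and lactate exporter genes 6 were tested. In MSCs 2 rose and 2 fell, and in osteocytes 4 rose and 1 fell, beside 17.6% up and 20.4% down, and 21.9% up and 22% down, of all genes. Bsg, the chaperone of the lactate transporters, rose by 2.42 in MSCs (SE 0.0619, FDR 7.59e-14) and by 3.66 in osteocytes (SE 0.0619, FDR 6.54e-16). Slc16a1, a lactate and proton cotransporter, rose by 1.30 in MSCs (SE 0.0657, FDR 2.07e-10) and by 0.93 in osteocytes (SE 0.0647, FDR 7.39e-09). Slc16a3, a lactate exporter, gave 2.89 in osteocytes (SE 1.03, FDR 0.0206), from 0 to 3 counts to 11 to 16 counts, and was not past the threshold without osteocyte vehicle replicate 3 (FDR 0.0584) or with no filter (FDR 0.0755). It is 1 of the 4 counted as risen, but it exceeded 10 counts only in the 3 FG-4592-treated osteocyte libraries and was tested because of them. Hvcn1, a voltage-gated proton channel, fell by 0.47 in MSCs (SE 0.131, FDR 0.00847) and by 1.34 in osteocytes (SE 0.111, FDR 6.88e-08). Its change in MSCs had an FDR of 0.0683 without MSC vehicle replicate 3.

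Of 25 subunits and accessory proteins of the vacuolar proton pump 19 were tested. In MSCs 6 rose and 4 fell, where 17.6% of all genes rose and 20.4% fell. In osteocytes 3 rose and 12 fell, where 21.9% of all genes rose and 22% fell. The medians in MSCs and osteocytes were 0.06 and -0.21 against -0.05 and 0.00 over all genes. Atp6v0a4, a subunit best known from kidney, fell in MSCs by 2.24 (SE 0.414, FDR 0.000198), from 28 to 37 counts to 3 to 10, and rose in osteocytes by 1.82 (SE 0.227, FDR 7.84e-06), from 122 to 196 counts to 415 to 693. Atp6v1c2 fell by 1.96 in MSCs (SE 0.365, FDR 0.00028) and by 1.63 in osteocytes (SE 0.234, FDR 3.19e-05).

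**Figure D4:**
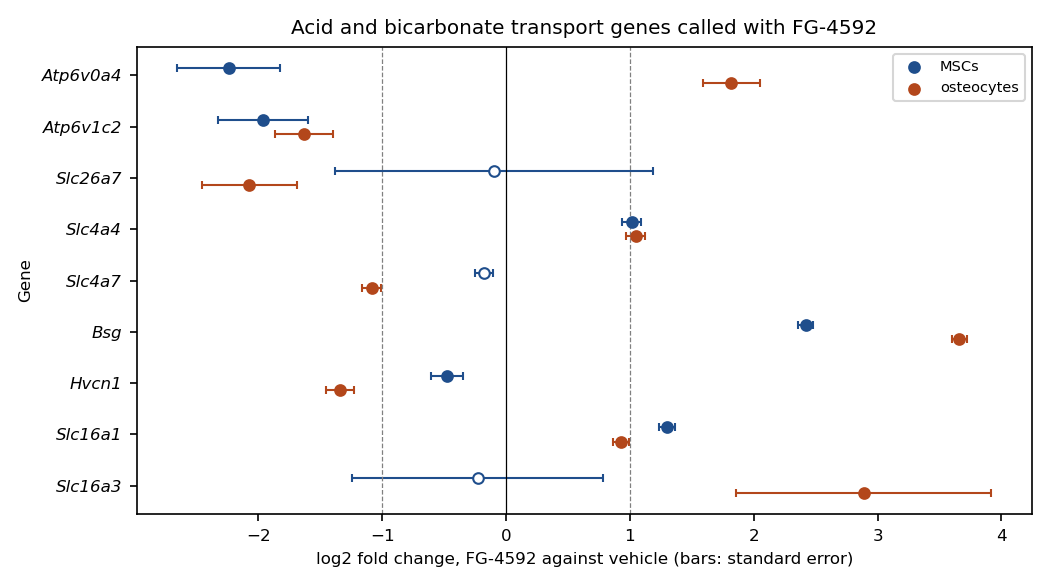
Log2 fold changes with FG-4592 against vehicle are shown for the 9 bicarbonate transporter, proton and lactate exporter and proton pump genes called in at least 1 cell type, with standard errors, for MSCs (blue) and osteocytes (orange). Filled symbols have an FDR under 0.05. Bsg and Slc4a4 are to the right of 1 in both cell types, and Atp6v0a4 is at -2.24 in MSCs and 1.82 in osteocytes.

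The genes most like Car2 and Car9, the members called with FG-4592, were sought by Pearson's r of log2 CPM over the 12 libraries among 12146 non-member genes that averaged 100 counts or more in some condition. For Car2 they were Irf7 (r = 0.996), Tax1bp3 (0.985) and Col6a1 (0.982). Irf7, an interferon regulatory factor, had mean levels of 17.5, 9.55, 7.41 and 4.30 CPM in MSC vehicle, MSC FG-4592, osteocyte vehicle and osteocyte FG-4592. For Car9 they were Nemp1 (r = 0.975), Zfp287 (0.973) and Kif21b (0.966). In the same order of conditions, Nemp1 had 14.5, 14.4, 14.1 and 21.9 CPM, Zfp287 had 12.0, 11.8, 11.7 and 15.2 CPM, and Kif21b, a kinesin, had 0.287, 0.385, 0.417 and 6.84 CPM, so the likeness is in the pattern and not in the size of the step. The libraries fall into 4 conditions that every gene shares, so these values describe likeness across conditions and libraries only.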

How the data were processed

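RNAseq counts of 12 libraries of MPC2 cells were used, 3 per condition, in groups taken from the labelled cell type and treatment. The authors deposited raw counts per gene, made from paired reads mapped to mm10 with STAR 2.7.2a and assigned to Gencode M22 genes with featureCounts 1.6.2 (mapping quality of at least 10, every overlapped gene counted, no strand option), along with exonic gene lengths. Totals were 52829185 to 68108470 counts. The quasi-likelihood test of edgeR 4.0.16 (R 4.3.3) was fitted to the 16484 genes that exceeded 10 counts in 3 or more libraries, using TMM scaling and the 4 conditions as coefficients. The FDR was the Benjamini-Hochberg adjustment over all of them. "Rose" and "fell" refer to an FDR under 0.05, and a call to an absolute log2 fold change above 1 as well. The standard errors were taken from the fitted weights and the moderated dispersion of each gene, and the fit was tested on simulated data. Levels per kb divided CPM by the deposited length.

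The members and gene lists were chosen with earlier results of these data known. All members were named, along with genes of the bicarbonate transporter, exporter, proton pump and HIF target lists called with FG-4592. Not every marker gene called with FG-4592 is named. For each member called with FG-4592, the 3 non-member genes with the highest Pearson's r were named (log2 CPM with a prior count of 2, mean of at least 100 counts in the highest condition). Of the listed erythroid markers, 1 is not reported here by name. Values of marker genes and of Car1 and Gm12454 were given beside results that they touch. Slc26a6, Atp6v1c1 and Pdpn are each listed on 2 rows, 1 of them an alternate sequence, and are uncertain. The alternatives were edgeR's likelihood ratio test, DESeq2 1.42.0, RLE, upper-quartile and no scaling factors, no filter, filterByExpr, the libraries of a comparison alone, a replicate block and leaving out each library.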

Additional observations from a re-analysis of the deposited data

Results flagged for a closer look

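The response to FG-4592 differed between osteocytes and MSCs for Car3 and for 10 listed genes named for their FG-4592 response, by the interaction contrast of edgeR at an FDR under 0.05, which 13.3% of all genes passed upwards and 11% downwards. Differences are given as log2 fold change in osteocytes minus that in MSCs. For Car3 the difference was -0.60 (FDR 0.0196). Among the transport genes it was -0.91 for Slc4a7, 1.24 for Bsg, -0.37 for Slc16a1, -0.87 for Hvcn1 and 4.06 for Atp6v0a4 (FDR 6.58e-06), whose response had opposite signs in the cell types. These genes were chosen for their responses and do not stand for their lists: of the 19 tested proton pump genes 1 (Atp6v0a4) passed upwards and 10 downwards, of 6 bicarbonate transporters 1 each way, and of 6 proton and lactate exporters 1 upwards and 2 downwards. Among the HIF reference targets it was -0.85 for Pdk1, 1.47 for Vegfa, 1.47 for Ankrd37, -0.56 for Ldha and -0.58 for Bnip3, all of which rose in both cell types.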

How the results depend on the processing

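Over the alternatives, 151 of 160 counts of called members stayed within 1.5 times, and 596 of 625 values of a member in a comparison kept their direction and their call. The FDR alone moved to the other side of 0.05 in 18 of the 625, 6 of them for Car3 with FG-4592 in MSCs or osteocytes (in osteocytes 0.0347 under library size alone). Leaving out 1 library moved the members called down with FG-4592 in MSCs between 0 and 1, those called up in osteocyte against MSC vehicle between 1 and 3 (1 without osteocyte vehicle replicate 3, which takes Car6 below the filter and Car5b below the fold cutoff), and those called for the difference of the responses between 0 and 1 upwards and between 0 and 1 downwards. The likelihood ratio test and the fit with no filter each gave 1 member called upwards for that difference (Car9). The summed level in MSC vehicle was 81.8 CPM per kb under library size alone. Signs changed for values near 0 that did not pass: Car11 with FG-4592 in MSCs (-0.25 to 0.13 without 1 library, with 0.03, 0.13, 0.08 and 0.00054 above 0), Car9 in MSCs (-0.43 without MSC FG-4592 replicate 2, up to 1.18 without another library), Car5b in MSCs (-0.0024 under library size alone) and in osteocytes (-0.15 to 0.04 without 1 library, with 0.011 and 0.041 without osteocyte vehicle replicate 3 and osteocyte FG-4592 replicate 2), and Car8 in osteocytes (-0.0061 and -0.066 under upper-quartile factors and library size alone, which moved the median of all genes by -0.09, up to 0.34 without 1 library, and -0.16, -0.07 and -0.40 without osteocyte vehicle replicate 2, osteocyte vehicle replicate 3 and osteocyte FG-4592 replicate 3). For Car9 in osteocyte against MSC vehicle, leaving out osteocyte vehicle replicate 1 left all osteocyte vehicle counts at 0 and a fitted value of -4.10, which is no bound, and the highest without another library was 1.86. For the other named genes, 961 of 989 values with FG-4592 and of the difference kept their direction and call, and 17 changed sign or became 0, none of them past the threshold. Beyond fewer libraries, the causes were not tested.

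Replicate numbers are shared across conditions, but same-numbered libraries did not deviate together over the genes tested (correlations of -0.05 to 0.05). This gave no sign that the numbers pair libraries, though it cannot show that they do not. With the replicate block, the members called with FG-4592 were 0 up and 1 down in MSCs and 1 up and 0 down in osteocytes, as without it. Depth limits Car4, Car6, Car9 in all conditions but osteocyte FG-4592, and Car12.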
